A study of Homo sapiens with 9 samples.

Results

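A set of 10 genes, made up of cadherins and of markers of the epithelial or the mesenchymal state, was followed in HaCaT keratinocytes. The cadherin genes were CDH1, CDH2, CDH3, CDH5 and CDH13. The others were the epithelial adhesion gene EPCAM, the mesenchymal genes VIM and FN1, and the transcription factor genes SNAI2 and ZEB1. All 10 were chosen by gene symbol, among the 16199 genes detected in at least 1 library. Of the 10, 9 passed the filter on low counts and were tested together with the other genes, 12394 in all, and VIM did not pass it.

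Cadherins hold neighboring cells together through calcium-dependent contacts between their outer domains, and the inner tails of the classical members bind the catenins, which link them to actin. In the epidermis E-cadherin and P-cadherin (CDH1 and CDH3) form the adherens junctions of keratinocytes. In an epithelial-mesenchymal transition, a program used in development and at wound edges, E-cadherin and EpCAM typically decrease, N-cadherin (CDH2), vimentin (VIM) and fibronectin (FN1) increase, and factors of the SNAI and ZEB families repress the epithelial genes.

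HaCaT is an immortalized line of human keratinocytes, labelled as wild type. The untreated group was kept in serum-free medium, and the other groups were given EGF (10 nM) or bleogen pB1 (1 µM), an EGF-like peptide derived from cactus, for 24 h once the cells were confluent, with 3 replicates in each of the 3 groups. The labels do not say whether the replicates were separate cultures, so that p-values measure the spread between these libraries, which may be technical. Since EGF and bleogen pB1 were given at different doses, a difference between them is a difference between these treatments as given.

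The libraries held 20288417 to 21320994 expected counts (estimates of the fragments of each gene), and 3 counts, the floor of what this depth can show, lie at 0.141 to 0.148 CPM. CPM is the count per library size, and levels below are CPM with TMM factors for library composition. This floor covers counting error only. All 8 keratinocyte markers were detected, with a summed level of 11874 to 13132 CPM in the untreated, 9426 to 9820 in the EGF-treated and 11689 to 13700 in the bleogen pB1-treated cells. KRT5 and KRT15 fell and KRT14 and TP63 rose with EGF, although the rise of TP63 (log2FC 0.50) was no longer called with upper-quartile factors or without scaling factors. The melanocyte markers summed to between 5.24 and 9.17 CPM over all 9 libraries, mostly MITF. The leukocyte markers summed to 12.7 to 13.4 CPM in the untreated, 21.6 to 22.7 in the EGF-treated and 11.2 to 12.7 in the bleogen pB1-treated cells, mostly CD68, while PTPRC had at most 6 counts in any library.

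Compared per length, as FPKM (fragments relative to transcript length and to the size of the library), the members fell into a group of 7 with high levels and a group of 3 with low ones in the untreated cells. EPCAM had the highest mean with 142 FPKM, ahead of CDH3 with 131, FN1 with 109, CDH1 with 93.8, SNAI2 with 67.4, CDH2 with 47.4 and CDH13 with 26.0 FPKM. The remaining 3 had 0.673 FPKM for CDH5, 0.277 for ZEB1 and 0.0933 for VIM. No neighbors in this order overlapped between the untreated libraries. With EGF the order of the first 3 was kept, SNAI2 (66.6 FPKM) stood above CDH1 (57.0 FPKM), and CDH5 (0.0233 FPKM) was last. In the EGF-treated libraries FN1 overlapped with SNAI2, SNAI2 with CDH1, and CDH2 (34.1 FPKM) with CDH13 (29.95 FPKM), so that these neighbors did not differ beyond their spread. With bleogen pB1 the order of the 7 higher members was that of the untreated cells, although FN1 (91.0 FPKM) overlapped with CDH1 (85.3 FPKM), and CDH5 (0.133 FPKM) overlapped with VIM (0.0900 FPKM).

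The first comparison asked how the members differed between EGF-treated and untreated cells. A gene was called when its adjusted p was at most 0.05 and its |log2FC| at least 0.5. CDH5 passed the count filter only through the untreated libraries, the group in which it is high, so that it had to differ, and it is left out of the counts of calls that follow and described by its values further on. Of the other 8 tested members, 2 fell with EGF (CDH1 and CDH3) and none rose. Of all genes tested 36.9% were called (21.8% lower and 15.1% higher), so that members were not called at a share above the background. With the adjusted p alone 6 of the 8 passed, beside 66.1% of all genes. The CPM of the groups did not overlap in 7 of all 10 members, beside 70.4% of the genes tested. This count takes in CDH5, which had to differ, and VIM, which was not tested, so that the 2 shares are not like for like. The median log2FC of the 8 was −0.21, beside −0.01 over all genes.

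With bleogen pB1 against untreated cells, edgeR called 0 of the 8, beside 1.48% of all genes (1.26% lower and 0.218% higher), and DESeq2 called none of the 8 either. With the adjusted p alone again 0 of the 8 passed, beside 4.11%. An unadjusted edgeR p under 0.05 was found in 4 of the 8. The share of all genes under that p was not computed, so that this count is not read as a result. The CPM of the groups did not overlap in 6 of all 10 members (CDH1, CDH2, CDH5, CDH13, FN1 and EPCAM), beside 29.1% of the genes tested. CDH5, which had to differ, and the untested VIM are again in this count, so that it is not like for like with the background. The median log2FC of the 8 was −0.14, beside −0.00 over all genes.

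Compared with bleogen pB1-treated cells, 1 of the 8 was lower with EGF (CDH1) and none higher, beside 28.8% of all genes (18.0% lower and 10.8% higher). With the adjusted p alone 4 of the 8 passed, beside 58.2%. In 5 of all 10 members, with CDH5 and VIM again in the count, the CPM did not overlap, beside 62.4%. The median log2FC of the 8 was 0.01, beside −0.01 over all genes. The 3 comparisons share their libraries in pairs and are not independent of each other.

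**Figure D1:**
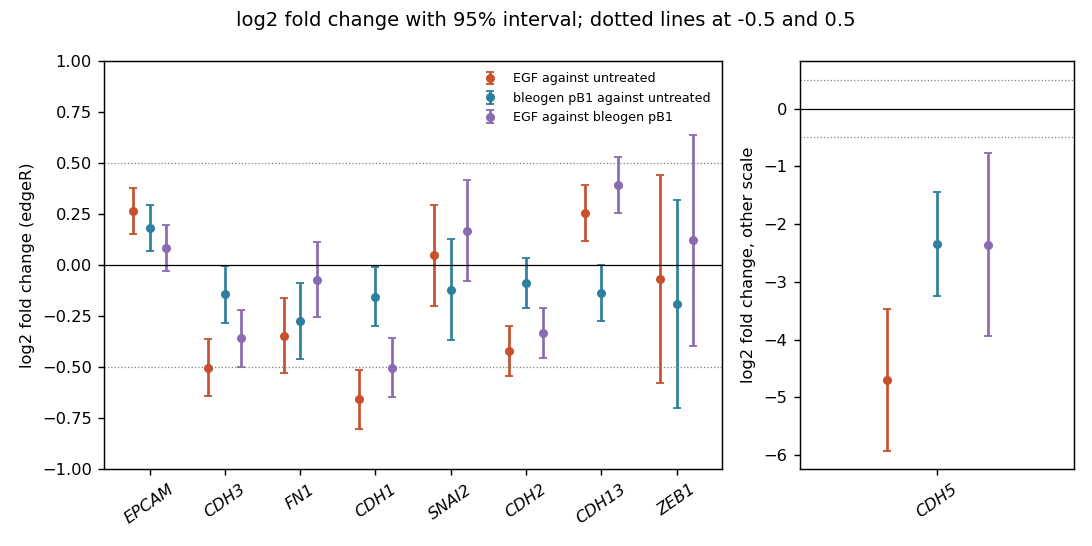
log2 fold change (edgeR) of the 9 tested members in the 3 comparisons, as points with 95% confidence intervals. Dotted lines mark the limits of −0.5 and 0.5, and CDH5 is drawn on a scale of its own. With EGF CDH1 (−0.66) and CDH3 (−0.50) lie at or below the lower limit, EPCAM (0.27) and CDH13 (0.26) above 0, and the interval of ZEB1 is the widest of the 8 genes on the left.

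CDH1 encodes E-cadherin, the main adhesion molecule of epithelial adherens junctions (chromosome 16, 68737292 to 68835537, plus strand, GRCh38). Its level was 441, 452 and 438 CPM in the untreated libraries, 269, 298 and 277 CPM with EGF, and 432, 365 and 399.9 CPM with bleogen pB1. All EGF-treated libraries lay below all others, and bleogen pB1 replicate 1 lay next to the untreated libraries. With EGF CDH1 fell 1.58-fold (log2FC −0.66, SE 0.07, adjusted p = 3.1e-06 in edgeR's quasi-likelihood test). With bleogen pB1 it did not pass the test (log2FC −0.15, 95% confidence interval −0.30 to −0.01, edgeR adjusted p = 0.20), although the groups did not overlap. It was lower with EGF than with bleogen pB1 by a log2FC of −0.50 (SE 0.07, edgeR adjusted p = 4.3e-05), which lies just past the limit. It was −0.49 with DESeq2, which made no call, and between −0.49 and −0.44 without EGF replicate 1, EGF replicate 3, bleogen pB1 replicate 1 or bleogen pB1 replicate 3. In bulk RNA of this kind fewer cells with a transcript and less transcript per cell cannot be told apart.

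CDH3 encodes P-cadherin, the cadherin of basal keratinocytes and the nearest neighbor of CDH1 among the members (chromosome 16, 68636189 to 68727468, plus strand, ending 9823 bases before the start of CDH1). It measured 472, 482 and 455 CPM in the untreated, 325, 339 and 331 CPM in the EGF-treated and 459, 388 and 428 CPM in the bleogen pB1-treated libraries. The EGF-treated libraries again lay below all others, while bleogen pB1 replicate 1 fell within the untreated range. With EGF CDH3 fell 1.42-fold (log2FC −0.50, SE 0.06, edgeR adjusted p = 2.0e-05). This value sits on the fold limit, and it was −0.49 with DESeq2 and between −0.50 and −0.48 without untreated replicate 1, untreated replicate 2, EGF replicate 1 or EGF replicate 3, each of which ended the call. With bleogen pB1 the log2FC was −0.14 (95% confidence interval −0.28 to −0.00, edgeR adjusted p = 0.21). The difference between EGF and bleogen pB1 was −0.36 (SE 0.06, edgeR adjusted p = 0.00042), below the fold limit.

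CDH2 encodes N-cadherin, the cadherin of neurons and mesenchymal cells (chromosome 18, 27932879 to 28177946, minus strand). Its level was 187 CPM in each of the 3 untreated libraries, 130.1, 149 and 141 CPM with EGF, and 175, 176 and 177 CPM with bleogen pB1. The groups did not overlap in any of the comparisons, and the untreated libraries differed by less than those of any other group. With EGF CDH2 had a log2FC of −0.42 (SE 0.06, edgeR adjusted p = 3.0e-05), which passes the adjusted p and not the fold limit. With upper-quartile factors, which shift the median of all genes by −0.10, it was −0.52 and passed both. Between bleogen pB1 and untreated cells the log2FC was −0.09 (95% confidence interval −0.21 to 0.03, edgeR adjusted p = 0.38), and between EGF and bleogen pB1 it was −0.33 (SE 0.06, edgeR adjusted p = 0.00029).

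CDH5 encodes VE-cadherin, which joins endothelial cells (chromosome 16, 66366690 to 66404784, plus strand). Its expected counts were 49, 43 and 77 in the untreated, 5, 1 and 0 in the EGF-treated and 13, 6 and 15 in the bleogen pB1-treated libraries, with no entry in EGF replicate 3. These counts make the levels 2.36, 2.11 and 3.68 CPM in the untreated, 0.250, 0.0504 and 0 CPM with EGF, and 0.621, 0.278 and 0.702 CPM with bleogen pB1. None of the groups overlapped, and the EGF-treated libraries straddled the floor of 3 counts.

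Summed over the 3 libraries of each group, CDH5 had 169 counts without treatment, 6 with EGF and 34 with bleogen pB1. The level of the untreated cells was 28.6-fold that of the EGF-treated (95% exact interval of the counts 12.9 to 79.1) and 5.06-fold that of the bleogen pB1-treated cells (3.49 to 7.55), with intervals that cover counting error only. In edgeR CDH5 had a log2FC of −4.70 with EGF (SE 0.57) and −2.34 with bleogen pB1 (SE 0.42). Its edgeR adjusted p-values (1.2e-05 and 0.0077) are no support for a fall, because it passed the count filter only through the untreated libraries. The fitted value for EGF depends on how counts near 0 are handled. It ranged from −6.47 to −4.12 when single libraries were left out, and from −6.47 to −0.70 over all alternatives. Over all alternatives the log2FC ranged from −2.59 to −0.56 for bleogen pB1 and from −4.13 to −0.15 between the treatments. The level with bleogen pB1 was 5.65-fold that with EGF (95% exact interval 2.35 to 16.5), and this difference (log2FC −2.36, SE 0.73, edgeR adjusted p = 0.014) did not pass without EGF replicate 3 (log2FC −1.78, adjusted p = 0.053) or without bleogen pB1 replicate 3 (log2FC −2.11, adjusted p = 0.053).

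Other endothelial genes were read beside CDH5. Of 11 markers 10 were listed, and they summed to 4.06 to 4.47 CPM in the untreated, 4.95 to 8.66 in the EGF-treated and 3.98 to 5.06 in the bleogen pB1-treated cells. The defining genes PECAM1, KDR, TEK, EMCN and ERG had at most 6.64 counts in any library and TIE1 was not listed, so that most of this sum came from EGFL7, VWF and ROBO4. VWF, the carrier of clotting factor VIII, fell with EGF from 1.21, 0.982 and 1.10 CPM to 0.200, 0.403 and 0.241 CPM. ROBO4, an endothelial guidance receptor, went with EGF from 0, 0 and 1 counts to 47, 99 and 68 counts, the direction opposite to CDH5, and passed the count filter only through the EGF-treated libraries.

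CDH13 encodes T-cadherin, which lacks the inner tail of the classical members and is anchored to the membrane by a lipid (chromosome 16, 82626965 to 83800640, plus strand). It measured 102, 99.3 and 93.6 CPM in the untreated, 109, 125 and 118 CPM in the EGF-treated and 91.1, 85.9 and 91.0 CPM in the bleogen pB1-treated libraries. It was the one cadherin of the 5 whose EGF-treated libraries lay above all others. Its log2FC with EGF was 0.26 (SE 0.06, edgeR adjusted p = 0.0029), short of the fold limit, and it stayed between 0.15 and 0.31 over its alternatives (adjusted p of up to 0.053). With bleogen pB1 it was −0.14 (95% confidence interval −0.27 to 0.00, edgeR adjusted p = 0.23). The treatments differed by 0.39 (SE 0.06, edgeR adjusted p = 0.00018), again short of the limit.

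EPCAM encodes a surface protein that holds epithelial cells together without calcium (chromosome 2, 47345158 to 47387601, plus strand). Its level was 225, 236 and 238 CPM in the untreated, 285, 271 and 286 CPM in the EGF-treated and 260.1, 271 and 262 CPM in the bleogen pB1-treated libraries. Every treated library lay above every untreated one, and the treated groups overlapped each other. The log2FC with EGF was 0.27 (SE 0.05, edgeR adjusted p = 0.00058), which passes the adjusted p and not the fold limit. With bleogen pB1 it was 0.18 (95% confidence interval 0.07 to 0.30, edgeR adjusted p = 0.069). The treatments differed by 0.09 (95% confidence interval −0.03 to 0.20, edgeR adjusted p = 0.18), and its sign turned with upper-quartile factors and in limma on FPKM.

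VIM encodes vimentin, the intermediate filament protein of mesenchymal cells (chromosome 10, 17228241 to 17237593, plus strand). It had 2, 4 and 6 counts in the untreated, 5, 5 and 6 in the EGF-treated and 4, 6 and 2 in the bleogen pB1-treated libraries. All groups overlapped and lay around the floor of 3 counts, where no difference was detectable at this depth (exact permutation test on CPM, two-sided, p = 0.3 for EGF, 0.7 for bleogen pB1 and 0.3 between them, with 0.1 the smallest possible p).

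FN1 encodes fibronectin, a matrix protein that cells grip through integrins (chromosome 2, 215360440 to 215436073, minus strand). It was the member with the most counts, at 922, 886 and 874 CPM in the untreated, 710.3, 709.6 and 692 CPM in the EGF-treated and 836, 625 and 757 CPM in the bleogen pB1-treated libraries. Both treated groups lay below the untreated libraries, and the bleogen pB1-treated libraries spread across the EGF-treated ones. The log2FC with EGF was −0.34 (SE 0.09, edgeR adjusted p = 0.0031), which passes the adjusted p and not the fold limit. With bleogen pB1 it was −0.27 (95% confidence interval −0.46 to −0.09, edgeR adjusted p = 0.087), and −0.37 without bleogen pB1 replicate 1 (adjusted p = 0.011), still short of the limit. The treatments differed by −0.07 (95% confidence interval −0.26 to 0.11, edgeR adjusted p = 0.50), and 0.03 without bleogen pB1 replicate 1.

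The promoter of FN1 is shown because FN1 had the most counts of the members and was the one whose deposited length differed between groups. It is the RefSeq sequence of GRCh38.p14 that ends just before the start of the transcript, chr2:215436069-215436318 on the minus strand. Capitals mark a cAMP response element (TGACGTCA) and a CCAAT box (CCAAT), found by their letters on either strand at 183 and 162 bases before the start, and the motifs do not overlap.
FN1 promoter: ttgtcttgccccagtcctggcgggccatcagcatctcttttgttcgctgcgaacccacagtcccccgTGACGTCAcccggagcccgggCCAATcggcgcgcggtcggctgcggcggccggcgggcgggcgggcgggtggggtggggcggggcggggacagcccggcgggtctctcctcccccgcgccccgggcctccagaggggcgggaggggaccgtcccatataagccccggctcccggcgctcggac
Of 35116 RefSeq promoter windows, from 250 bases before to 50 bases after a start, 1.85% held TGACGTCA and 34.6% held CCAAT on either strand. The letters CACCTG, or CAGGTG on the other strand, an E-box that SNAI and ZEB factors are known to bind, were held by 20.6% of the windows and were not in this window of FN1. Of the other members with windows, CDH2 and VIM did not hold these letters, and 2 of the 7 windows of ZEB1 held them.

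FN1 was also the member whose deposited length differed between groups. The sources used here do not describe this column. It varies between libraries and has decimals, and was read as a mean over the transcripts of a gene, which is an inference. The length was 8341, 8338 and 8347 bases in the untreated, 8398, 8419 and 8407 bases in the EGF-treated and 8352, 8346 and 8352 bases in the bleogen pB1-treated libraries. The EGF-treated libraries lay above all others, by a mean of 65.5 bases over untreated and 57.5 bases over bleogen pB1-treated cells (exact permutation test, two-sided, p = 0.1 for each, the smallest possible). Bleogen pB1-treated and untreated libraries overlapped, with a difference of 8.02 bases (exact permutation test, p = 0.2). Among the 7181 genes whose deposited length varied by over 0.5 bases, the groups were apart in 20.2% for EGF, 10.8% for bleogen pB1 and 18.2% between the treatments. None of the other members had lengths that were apart between groups. Of these, VIM, SNAI2, EPCAM and CDH5 had the same length in every library with an entry and could not be apart. That leaves CDH1, CDH2, CDH3, CDH13 and ZEB1 beside FN1 as members that could be. With 20.2% of genes apart for EGF, a single such member does not stand out from the background. The column does not say which transcripts differ, if any.

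**Figure D2:**
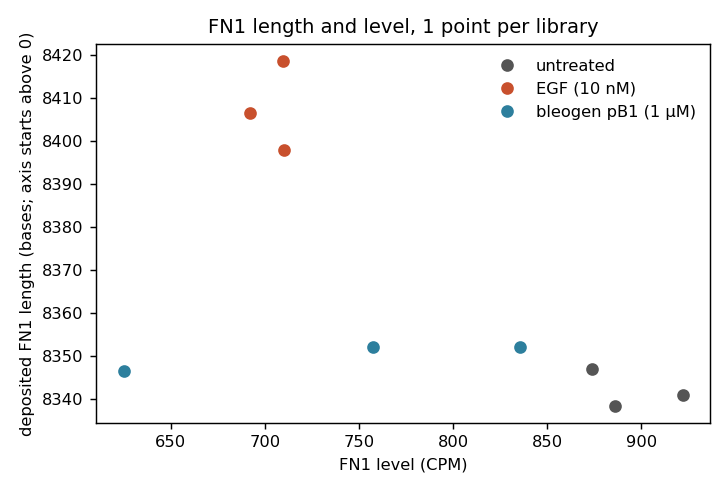
Deposited length of FN1 in bases against its level in CPM, with 1 point per library. The axes start above 0. The EGF-treated libraries (8398 to 8419 bases) lie above the others in length, and the bleogen pB1-treated libraries share the length of the untreated ones (8338 to 8352 bases over both groups) while their levels run from 625 to 836 CPM.

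SNAI2 encodes Slug, a repressor of E-cadherin that basal keratinocytes also express (chromosome 8, 48917598 to 48921740, minus strand). Its level was 142, 139 and 128 CPM in the untreated, 172, 115 and 136 CPM in the EGF-treated and 135, 116 and 125 CPM in the bleogen pB1-treated libraries. All groups overlapped, and the EGF-treated libraries spanned the range of the others. The log2FC was 0.05 with EGF (95% confidence interval −0.20 to 0.30, edgeR adjusted p = 0.72), with a sign that turned under upper-quartile factors, without scaling factors, in limma on FPKM and without EGF replicate 1. With bleogen pB1 it was −0.12 (95% confidence interval −0.37 to 0.13, edgeR adjusted p = 0.57), and between the treatments it was 0.17 (95% confidence interval −0.08 to 0.42, edgeR adjusted p = 0.22).

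ZEB1 encodes a zinc finger repressor of epithelial genes (chromosome 10, 31318495 to 31529814, plus strand). It had 33, 28 and 40 counts in the untreated, 34, 34 and 26 in the EGF-treated and 32, 27 and 32 in the bleogen pB1-treated libraries. The groups overlapped in every comparison at these low counts. The log2FC was −0.07 with EGF (95% confidence interval −0.58 to 0.44, edgeR adjusted p = 0.81), −0.19 with bleogen pB1 (−0.70 to 0.32, adjusted p = 0.68) and 0.12 between them (−0.39 to 0.64, adjusted p = 0.68). Each of these intervals reaches past the limit of 0.5 in at least 1 direction.

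Ratios within a library do not depend on scaling between libraries, and they were compared per length, as FPKM. The ratio of CDH3 to CDH1 was 1.41, 1.41 and 1.36 in the untreated, 1.59, 1.495 and 1.57 in the EGF-treated and 1.40, 1.40 and 1.41 in the bleogen pB1-treated libraries. It was higher in every EGF-treated library than in any other, by 0.16 on the log2 scale over untreated and 0.14 over bleogen pB1-treated cells (exact permutation test, two-sided, p = 0.1 for each, the smallest possible), and differed by 0.01 between bleogen pB1-treated and untreated cells (exact permutation test, p = 0.8).

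The ratio of FN1 to CDH1 was 1.21, 1.13 and 1.15 in the untreated, 1.51, 1.36 and 1.43 in the EGF-treated and 1.11, 0.987 and 1.09 in the bleogen pB1-treated libraries. It was above the untreated range with EGF, by 0.30 on the log2 scale, and below it with bleogen pB1, by a difference of −0.13, and the treatments differed by 0.43 (exact permutation test, p = 0.1 for each, the smallest possible). The ratio of CDH2 to CDH1, which was chosen after its values were seen and has no test, was 0.505, 0.501 and 0.512 in the untreated, 0.584, 0.601 and 0.608 in the EGF-treated and 0.489, 0.581 and 0.532 in the bleogen pB1-treated libraries. The ratio of VIM to CDH1 rests on 2 to 6 counts of VIM per library. Its log2 difference was 1.16 for EGF and 1.05 between the treatments (exact permutation test, p = 0.1 for each), and 0.11 for bleogen pB1 (exact permutation test, p = 0.7).

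Of 15 other classical cadherins 13 were listed and 4 passed the count filter. CDH4, the retinal cadherin, passed it only through the EGF-treated libraries, the group in which it is high, and went from 5, 8 and 7 counts to 28, 22 and 22 counts (log2FC 1.86, SE 0.38). The other 3 fell with EGF, beside 21.8% of all genes called lower, and none of the 4 was called with bleogen pB1, beside 1.48% of all genes called. CDH10 fell from 2.65, 2.90 and 2.63 CPM to 1.20, 0.655 and 0.818 CPM (log2FC −1.61, SE 0.25), and CDH26 had a log2FC of −1.20 (SE 0.30). CDH24, the most expressed of the list, fell by 1.17 on the log2 scale, from a mean of 22.7 to 10.1 CPM, and was named beyond the 3 with the largest change after its values were seen. Against bleogen pB1, CDH4 was higher (log2FC 2.13) and CDH10 (−1.45) and CDH24 (−1.20) were lower with EGF. The median log2FC without CDH4 was −1.20 with EGF and −0.16 with bleogen pB1, beside −0.01 and −0.00 over all genes. The calls with EGF and bleogen pB1 in the lists that follow stand beside the same background of 36.9% (21.8% lower and 15.1% higher) and 1.48% of all genes, and beside 28.8% between the treatments. For bleogen pB1, where edgeR called no gene of these 7 lists, DESeq2 without independent filtering called none either. Between 0 and 4 genes of a list had an unadjusted edgeR p under 0.05, again without a share over all genes beside them.

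Of 15 catenins and other partners at adherens junctions 14 were listed and 12 tested. With EGF 1 rose and 2 fell, 9 were not called, and none was called with bleogen pB1. CTNND1, which encodes p120-catenin, the partner that keeps cadherins at the cell surface, fell from 697, 682 and 687 CPM to 417, 404 and 404 CPM (log2FC −0.75, SE 0.06, edgeR adjusted p = 6.8e-07). NECTIN4, an adhesion molecule of the nectin family, fell from 17.6, 20.4 and 17.4 CPM to 5.40, 4.18 and 6.11 CPM (log2FC −1.82, SE 0.14). AFDN, which links nectins to actin, had a log2FC of 0.53 (SE 0.07) and was not called with upper-quartile factors or without scaling factors. CTNND1 (log2FC −0.66) and NECTIN4 (−2.07) were also lower with EGF than with bleogen pB1. The catenin genes CTNNA1, CTNNB1 and JUP were not called with EGF, with a log2FC of −0.09 for CTNNA1, 0.00 for CTNNB1 and −0.27 for JUP. JUP passed the adjusted p (edgeR adjusted p = 0.0068) and not the fold limit. The median of the 12 was −0.11 with EGF and 0.03 with bleogen pB1.

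**Figure D3:**
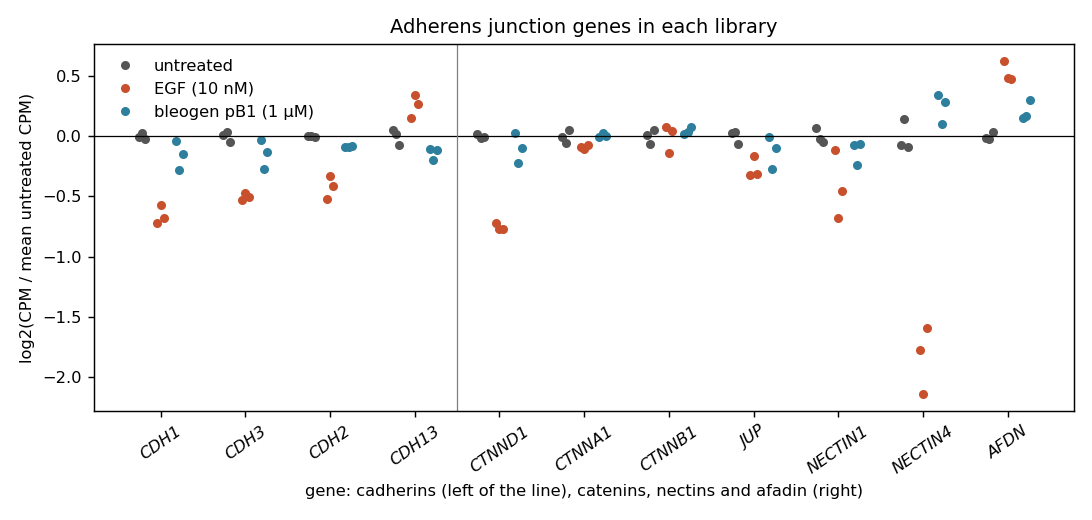
Level of 4 cadherin members and of 7 catenin, nectin and afadin genes in each library, as log2 of the CPM over the untreated mean. Each point is 1 library (3 per group), and the vertical line separates the cadherins from their partners. With EGF CDH1, CDH3, CDH2, CTNND1, NECTIN4, CTNNA1, JUP and NECTIN1 lie below 0 in every library. CDH13 and AFDN lie above 0 in every EGF-treated library, and CTNNB1 scatters around 0.

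Of 10 other transcription factors of the epithelial-mesenchymal transition, 8 were listed and 4 tested. SNAI1, ZEB2, TWIST1 and FOXC2 had at most 6 counts in any library. With EGF TWIST2 rose from 2.41, 2.65 and 2.44 CPM to 4.70, 4.43 and 4.28 CPM (log2FC 0.84, SE 0.19, edgeR adjusted p = 0.0020), and SNAI3 fell from 1.06, 0.688 and 0.764 CPM to 0.200, 0.453 and 0.530 CPM (log2FC −1.07, SE 0.41, edgeR adjusted p = 0.033), a call that DESeq2 did not make. None was called with bleogen pB1, and TWIST2 was higher with EGF than with bleogen pB1 (log2FC 0.72). The median of the 4 was −0.02 with EGF and 0.12 with bleogen pB1.

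Of 11 factors of the epithelial program all were tested, and with EGF 3 rose, 2 fell and 6 were not called. ELF3, an epithelial ETS factor, fell from 54.5, 56.9 and 59.3 CPM to 7.50, 9.77 and 6.84 CPM (log2FC −2.82, SE 0.14, edgeR adjusted p = 5.1e-09). KLF5, a factor of proliferating basal cells, rose from 118, 114 and 122 CPM to 274, 263 and 264 CPM (log2FC 1.18, SE 0.07, edgeR adjusted p = 1.6e-08). KLF4, a factor of differentiating keratinocytes, rose by a log2FC of 0.69 (SE 0.11). OVOL1 (log2FC 0.51), named because its call depends on the scaling, was not called with upper-quartile factors or without scaling factors. None was called with bleogen pB1. GRHL2, named to complete the counts, also fell with EGF (log2FC −0.62, SE 0.08). Against bleogen pB1, 1 was higher and 3 were lower with EGF, with a log2FC of 0.89 for KLF5, −2.43 for ELF3, −0.89 for GRHL3 and −0.55 for GRHL2. The median of the 11 was 0.16 with EGF and 0.17 with bleogen pB1.

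Of 13 other mesenchymal genes 9 were tested, and with EGF 6 fell, beside 21.8% of all genes called lower, none rose and 3 were not called. The median log2FC was −0.73, beside −0.01 over all genes. COL3A1, a fibrillar collagen, fell from 4.48, 5.26 and 4.87 CPM to 0.600, 0.705 and 0.530 CPM (log2FC −2.98, SE 0.26, edgeR adjusted p = 8.7e-07). SPARC, a matrix protein that binds collagen, fell from 532, 551 and 491 CPM to 149.9, 145 and 147 CPM (log2FC −1.83, SE 0.11, edgeR adjusted p = 3.1e-08). COL1A1 had a log2FC of −1.67 (SE 0.26), and TGFBI (−0.51), named because its call lies at the limit, was not called with RLE factors or DESeq2. None was called with bleogen pB1, with a median of −0.12. TNC is named because it alone passed the adjusted p with bleogen pB1, beside 4.11% of all genes. It was higher there (log2FC 0.27, edgeR adjusted p = 0.0499), short of the fold limit, and lower with EGF (−0.73). Against bleogen pB1, 5 of the 9 were lower with EGF, led by COL3A1 (log2FC −2.65), SPARC (−1.62) and COL1A1 (−1.53).

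Fibroblast markers moved with this list, which shares COL1A1, COL1A2 and COL3A1 with it. All 8 were listed, and they summed to 7.62 to 9.31 CPM in the untreated, 1.30 to 2.00 in the EGF-treated and 6.13 to 9.17 in the bleogen pB1-treated cells. The defining genes PDGFRA, PDGFRB and THY1 had at most 2 counts in any library, and COL1A1 and COL3A1 fell with EGF. DCN was called lower too, but passed the count filter only through the bleogen pB1-treated libraries. Their part in the values of the mesenchymal list was not tested.

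The partners of EPCAM and the receptors of fibronectin were read with their members. Of 5 EPCAM relatives and partners 4 were tested, and with EGF 2 rose and none fell. CD44, the receptor of hyaluronan, rose from 583, 569 and 573 CPM to 1298, 1423 and 1326 CPM (log2FC 1.23, SE 0.06, edgeR adjusted p = 6.3e-09), and CLDN7, a claudin that binds EpCAM, rose from 161, 162 and 152 CPM to 214, 273 and 242 CPM (log2FC 0.62, SE 0.08). With upper-quartile factors or without scaling factors CD9 was also called, lower, so that the direction of this list depends on the scaling. Of 8 integrin genes for fibronectin 6 were tested, and with EGF 2 were called higher and none lower. These were ITGA5 (log2FC 1.04, SE 0.07) and ITGB1 (0.72, SE 0.05), the subunits of the main fibronectin receptor. ITGAV, which was not called, went from 209, 200 and 228 CPM to 140, 186 and 174 CPM with EGF. ITGA5 went from 36.7, 33.5 and 37.5 CPM to 72.0, 79.0 and 70.4 CPM. In both lists the same genes were higher with EGF than with bleogen pB1 (log2FC 1.11 for CD44, 0.52 for CLDN7, 0.98 for ITGA5 and 0.67 for ITGB1), of which CLDN7 was not called with upper-quartile factors or without scaling factors. None was called with bleogen pB1 against untreated cells. The medians with EGF and bleogen pB1 were 0.10 and −0.06 for the first list and 0.16 and 0.06 for the second.

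The genes with the pattern nearest to each tested member were found over the 9 libraries among 12393 genes, by the root-mean-square distance between log2 CPM profiles that were each centered on their mean. PAQR7 and VPS39 were nearest to CDH1 (both at a distance of 0.0367, where the median gene was at 0.360), EPS8 to CDH2, and ZFYVE21 and TAX1BP3 to CDH3. CDH5 had no gene as near: GPRASP2 was at 0.414 and COLCA2 at 0.637, where the median gene was at 1.73. GPRASP2 had a log2FC of −4.32 with EGF and −2.30 with bleogen pB1. It went from 2.41 ± 0.687 CPM (SD, n = 3) in the untreated to 0.117 ± 0.202 and 0.485 ± 0.0478 CPM in the treated cells. Because GPRASP2 was picked for its likeness to CDH5 in these libraries, it had to fall in the same way. Its mean with EGF lay below the floor of 3 counts. LGALS1 and TMEM189 were nearest to CDH13, CTDSP1 and PARVA to FN1, MYC and NAV1 to SNAI2, ZNF430 and DNAJC27 to ZEB1, and XRCC5 and DNAJC8 to EPCAM. The distances describe likeness over libraries that share 3 treatments.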

How the data were processed

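HaCaT libraries of polyadenylated RNA were sequenced at BGI. RNeasy and DNBSEQ are the kit and platform in the labels, whereas the study's methods name PureLink and BGISEQ. Per the submitters' processing notes, reads were mapped to GRCh38.p12. The counting program and its use of strand are not given in the sources used here. The authors deposited 1 table per library with an expected count, a length and an FPKM per gene. As deposited, an expected count is an estimate that divides reads among transcripts and is not scaled for depth. As deposited, FPKM is scaled for length and depth. A gene without an entry was counted as 0.

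Expected counts were rounded and fitted with edgeR 4.0.16 in R 4.3.3 (filterByExpr, TMM, quasi-likelihood test, all 9 libraries, 6 residual degrees of freedom), with Benjamini-Hochberg adjustment over 12394 genes. Genes with |log2FC| of 0.5 or more and an adjusted p no higher than 0.05 were called, as in the study, which used DESeq2. Alternatives were DESeq2 1.42.0, edgeR on the 6 libraries compared, upper-quartile, RLE or no scaling factors, a minimum of 10 counts per library or no count filter, limma 3.58.1 on log2(FPKM + 1) or log2(FPKM + 0.1), other call limits, each replicate left out and a replicate block. DESeq2 without independent filtering was added after seeing the data. The script was tested on simulated data: with 200 of 12394 genes changed 2-fold between EGF-treated and untreated libraries, edgeR recovered 174 to 179 of them with 2 to 6 false calls in 3 simulations. In the real data far more genes were called with EGF (36.9%). Calls near the fold limit and the choice of scaling were not tested by these simulations. No replicates agreed within sampling noise (chi-square per gene 3.82 to 20.5).

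The members and the gene lists were chosen with earlier results of these data known. Named genes were all members, of each list at most 3 called genes per comparison by size of change, and the 2 genes with the nearest pattern, of which 1 is not reported here. The lists were other classical cadherins, catenins and junction partners, other transition factors, epithelial factors, mesenchymal genes, EPCAM partners, fibronectin receptors, and markers of keratinocytes, endothelial cells, fibroblasts, melanocytes and leukocytes. Levels are CPM with TMM-scaled library sizes, and values of genes that overlap others are uncertain. Positions are those of GENCODE 44 on GRCh38, 1-based, and promoters those of RefSeq on GRCh38.p14, in which 4 members have entries. Exact permutation tests, two-sided, of 3 against 3 libraries cannot go below 0.1. Python 3.11.15, numpy 2.4.6, scipy 1.17.1, pandas 2.3.3 and matplotlib 3.10.9 were used.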

Additional observations from a re-analysis of the deposited data

Results flagged for a closer look

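The deposited length of FN1, a column that the comparisons of expression do not use, was 65.5 bases longer on average in the EGF-treated than in the untreated libraries, with every EGF-treated library above every other (exact permutation test, two-sided, n = 3 per group, p = 0.1, the smallest possible). EGF-treated and untreated libraries were apart, in either direction, in 20.2% of the 7181 genes compared, so that FN1 does not stand out by this. The sources used here do not describe the column. It drew attention as a signal outside the main measurement, and its cause was not tested.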

How the results depend on the processing

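Of 454 alternative values of the member log2 fold changes, 422 kept their direction and their side of the limits, 20 lost the call, 1 gained it (CDH2 with EGF, −0.52 with upper-quartile factors) and 11 changed sign. Counts in this paragraph include CDH5. With EGF, 3 members were called, 7 with the adjusted p alone, 1 (CDH5) at |log2FC| of at least 1, and 2 to 3 when single replicates were left out. With bleogen pB1, the count was 0 with at least 10 counts in every library, a filter that leaves out CDH5, and 1 to 1 when single replicates were left out. DESeq2 gave no adjusted p for CDH5 with bleogen pB1. Without independent filtering, an alternative chosen after seeing the data, its DESeq2 adjusted p was 0.00013. Between EGF and bleogen pB1, the 2 calls became 1 with DESeq2 in both forms, RLE factors, no count filter and |log2FC| of at least 1 (CDH1 lost) and with at least 10 counts or limma on log2(FPKM + 1) (CDH5 lost), became 5 with the adjusted p alone, and ranged from 0 (without EGF replicate 3 or bleogen pB1 replicate 3) to 2 when single replicates were left out. Values under alternatives that changed sign, none of them called, were −0.0570 (upper-quartile), −0.00945 (no scaling), −0.0350 and −0.0357 (limma with pseudocounts of 1 and 0.1) for SNAI2 with EGF, and −0.0022 (upper-quartile), −0.0049 and −0.0049 (limma) for EPCAM between the treatments. With single replicates left out, the ranges were −0.12 to 0.18 for SNAI2 and −0.17 to 0.0701 for ZEB1 with EGF, −0.17 to 0.0262 for FN1 between the treatments, −0.0028 to 0.0197 for the log2 ratio of CDH3 to CDH1 and −0.28 to 0.48 for that of VIM to CDH1 with bleogen pB1. The causes were not tested. The replicate numbers come from sample titles only. Same-numbered libraries deviated together with correlations of −0.03 to 0.207, of which 2 of 9 were over 0.1, so that they were not taken as pairs. With a replicate block, 3, 1 and 2 members were called, and 4560, 186 and 3550 genes in all beside 4578, 183 and 3564. Depth limits VIM, ZEB1 and CDH5, whose counts were at most 77 per library.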
